A study of Mus musculus with 4 samples.

Results

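The resting transcriptome of BV2 cells labelled PU.1 knockout was described from the 2 untreated libraries, out of 4 libraries in the series. BV2 is a mouse microglial line immortalised with a retrovirus that carries oncogenes. The labels give the genotype as Pu.1 KO, made with CRISPR-Cas9, for every library of the series. Both libraries described here carry the label not treated, and the other 2 were exposed to lipopolysaccharide and are not used here. The cells were grown in high-glucose DMEM with fetal bovine serum and penicillin-streptomycin. RNA was total RNA depleted of ribosomal RNA, read as strand-specific pairs. Wild-type BV2 cells are not used here, so no level below can be set against one with intact PU.1. The labels give neither the number of clones behind the cells nor whether each library had its own culture. The spread between the libraries may therefore be technical.

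Microglia are the resident macrophages of the brain, and they clear debris, prune synapses and sense injury and microbes. PU.1, an ETS family transcription factor encoded by Spi1, is required for the development of macrophages and microglia and binds purine-rich sites in the promoters and enhancers of myeloid genes. BV2 cells have long stood in for microglia in culture, although cultured microglial cells lose much of the gene program that brain signals sustain.

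Reads were counted once per gene, and 2 scales are used. CPM, counts per 1000000 gene reads, is the share of a library's gene reads. TPM, transcripts per 1000000, divides each count by the length of the gene's longest transcript and is scaled to that total over the protein-coding genes of each library, so that genes can be compared per length. Genes are called detected with at least 10 reads in each library, trace with fewer reads but at least 1, and without a read when both libraries hold 0. A gene is called abundant in the top 10% of detected protein-coding genes. Values given as a pair are those of untreated replicate 1 and replicate 2, in that order, and ranks are by mean TPM among all protein-coding genes.

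The libraries held 4502105 and 4115011 gene reads. Of 24411 gene symbols, 9775 were detected (40.0%), 2504 had a trace and 12132 had no read (49.7%). Among 20509 protein-coding genes, 9515 were detected (46.4%) and 9140 had no read (44.6%). The detected share of each list below is to be read beside this 46.4%, and its abundant members beside 4.64% of all protein-coding genes. The lists were chosen with earlier results of these data known. With no read in 8617116 summed reads, a level of up to 0.348 CPM is allowed, by counting error only. CPM values of detected protein-coding genes gave a Spearman correlation of 0.992 between the libraries, across genes, which are not independent replicates. The higher library exceeded the lower by a median of 1.10 times, and 32 of the 9515 genes differed by at least 2 times, 31 of them with fewer than 100 reads in all. The libraries differed by more than sampling noise, with a chi-square of 1.52 per degree of freedom over 9907 genes with at least 20 reads, and were kept as 2 samples.

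**Figure D1:**
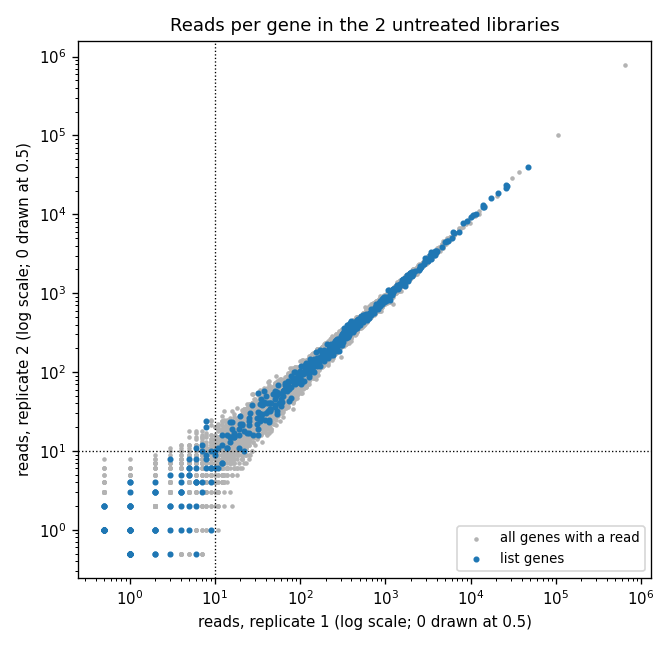
Reads of each gene in replicate 1 (horizontal) and replicate 2 (vertical), both on log scales with 0 drawn at 0.5. Grey points are genes with a read, blue points the genes of the lists described here, and the dotted lines mark 10 reads. The points widen toward low counts, where 31 of the 32 genes that differ by at least 2 times lie.

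Expression was spread steeply over genes. The 10 most abundant protein-coding genes held 9.92% of all TPM, the top 100 held 31.0%, and the 951 abundant genes (4.64% of protein-coding genes) held 65.5%. The last abundant gene lay at 184.2 TPM and the next one below the boundary also at 184.2 TPM. The median detected protein-coding gene lay at 30.7 TPM, and the median of all protein-coding genes at 0.691 TPM.

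By TPM on the longest transcript, the most abundant messenger RNA was that of Spp1, osteopontin, a secreted matrix phosphoprotein, at 19888 and 19315 TPM (19601 ± 405, SD, n = 2). With the median transcript length Ftl1 (9731 TPM) lay above Spp1 (9146 TPM), and by reads Lars2 (107529 and 100008) lay above Spp1 (46778 and 39748). Lars2, the mitochondrial leucyl-tRNA synthetase, followed at 17693 and 18807 TPM. Its level is uncertain, and it was left out with Rn45s, Mir6236, Rmrp and Rpph1 in an alternative CPM total. Whether all its reads come from Lars2 messenger RNA was not tested. Ftl1, the ferritin light chain that stores iron, lay at 17289 and 18053 TPM. On the longest transcript these 3 genes stood apart from the fourth, Actb, the cytoplasmic actin, at 8930 and 8831 TPM. With the median transcript length Actb (8625 TPM) lay close to Spp1. Apoe, the lipid carrier apolipoprotein E, ranked 5 at 6300 and 6756 TPM. Ctsd, the lysosomal aspartic protease cathepsin D, ranked 6 at 6298 and 6398 TPM. Apoe and Ctsd could not be ordered within the spread of the libraries.

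The remaining genes of the top 20 belonged to a few families. Ribosomal and translation genes took 7 places, from Rplp1 (6027 and 6652 TPM) through Rps2, Rplp0, Eef1a1, Rpl19 and Rps7 to Rpl4 (3676 and 3567 TPM). Glycolytic enzymes took 3 places. Pkm, pyruvate kinase, lay at 4577 and 4787 TPM. Ldha, lactate dehydrogenase, lay at 3620 and 3677 TPM, and Aldoa, aldolase, at 3399 and 3714 TPM. Gpnmb, a glycoprotein of endolysosomes, ranked 11 at 4523 and 4213 TPM. The histone gene Hist2h2bb (4283 and 4071 TPM), the nucleolar chaperone Npm1 (3894 and 3437 TPM) and prothymosin Ptma (3455 and 3363 TPM) completed the 20. Ribosomal protein genes, Npm1, Ptma and histone genes have near-identical copies in the genome, so their counts are uncertain.

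**Figure D2:**
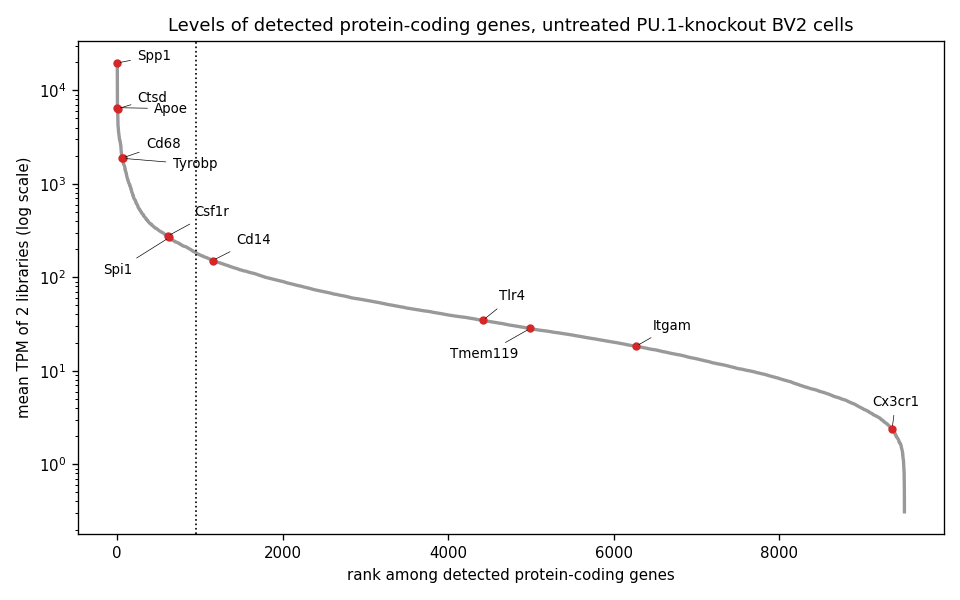
Mean TPM of the 2 libraries (vertical, log scale) against rank among the 9515 detected protein-coding genes (horizontal), with named microglial genes as red points. The dotted line marks the boundary of the 951 abundant genes: Spp1 and Apoe stand at the left end, Spi1 and Csf1r inside the boundary, and Cx3cr1 near the right end.

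Spi1 itself was read from in both libraries. It had 844 and 743 reads, or 266 and 268 TPM (267 ± 1.16, SD, n = 2), which ranked it 632. It was thus among the abundant genes. These reads show transcript from the locus and do not show the edit, since gene counts hold no sequence. The related ETS factors Spib and Spic had no read, while Fli1 (149 and 140 TPM) and Elf1 (54.8 and 52.6 TPM) were detected.

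Of 45 transcription factors of the myeloid lineage, 32 were detected (71.1%, against 46.4% of all protein-coding genes), 4 had a trace and 9 had no read. Their median was 24.6 TPM, against 0.691 TPM over all protein-coding genes. Lyl1, a helix-loop-helix factor of blood progenitors, was the highest on the longest transcript at 279 and 295 TPM. With the median transcript length Spi1 (409 TPM) lay above Lyl1 (125 TPM), so their order depends on the length chosen. On the longest transcript, the inhibitors of helix-loop-helix factors Id2 (224 and 231 TPM) and Id3 (180 and 226 TPM) followed Spi1. These were the 4 abundant members. Other factors of macrophage identity lay lower. Irf8, which binds with PU.1 at composite sites, lay at 60.6 and 76.8 TPM. Cebpa, the granulocyte and monocyte factor, lay at 115 and 127 TPM. Runx1 lay at 9.84 and 9.12 TPM. The lowest detected member was Runx2, at 4.36 and 3.63 TPM. Sall1, the zinc finger factor that marks microglia among macrophages, had no read in either library. Cebpe, Gfi1 and Gata1, factors of granulocytes and erythroid cells, also had no read.

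Genes that textbooks list as PU.1 targets were mostly present. Of 23 such genes, 20 were detected (87.0%, against 46.4% of all protein-coding genes). Another 3 had a trace, none was without a read, and 7 were abundant (30.4%, against 4.64%). The median of the 23 was 96.8 TPM, and together they made up 0.948% ± 0.0065 (SD, n = 2) of TPM. Lyz2, lysozyme, was the highest at 2657 and 2531 TPM. Cd68, a lysosomal glycoprotein of macrophages, lay at 1810 and 1974 TPM. Tyrobp, the signalling adaptor DAP12, lay at 1822 and 1927 TPM, so Cd68 and Tyrobp could not be ordered. Ctss, cathepsin S, lay at 1243 and 1193 TPM. Csf1r, the receptor for CSF1 on which microglia depend for survival, had 1971 and 1815 reads, or 269 and 283 TPM, rank 611. The low end of the list held Itgam, the integrin CD11b, at 15.9 and 20.6 TPM, and Msr1, a scavenger receptor, at 2.64 and 2.62 TPM. With principal transcript lengths Msr1 lay 2.23 times higher, above Csf3r, so its place as the lowest detected member depends on the transcript model. The cytokine gene Il1b had 4 and 3 reads, and the mannose receptor Mrc1 had 1 and 1 reads. The list thus ran from rank 44 to single reads within the same libraries.

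Promoter sequences are shown for Cd68, Itgam and Mrc1, a high, a low and a trace member of that list, because the PU.1 motif recurs in all of them. They are the 250 bases before the gene start in RefSeq (build GRCm38.p6), 5′ to 3′ on the gene's strand, with capitals marking the PU.1 core motif GAGGAA or its reverse complement TTCCTC.
Cd68, chr11:69666171-69666420, minus strand: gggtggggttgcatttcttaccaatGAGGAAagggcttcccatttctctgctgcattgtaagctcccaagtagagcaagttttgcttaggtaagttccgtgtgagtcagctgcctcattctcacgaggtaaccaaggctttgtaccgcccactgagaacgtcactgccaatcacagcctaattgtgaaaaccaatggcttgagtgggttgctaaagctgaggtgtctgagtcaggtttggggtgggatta
Itgam, chr7:128062390-128062639, plus strand: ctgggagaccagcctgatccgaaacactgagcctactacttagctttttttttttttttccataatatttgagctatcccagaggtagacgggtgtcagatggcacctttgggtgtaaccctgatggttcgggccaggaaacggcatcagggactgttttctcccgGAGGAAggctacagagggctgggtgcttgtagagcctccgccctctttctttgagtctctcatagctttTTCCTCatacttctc
Mrc1, chr2:14229164-14229413, plus strand: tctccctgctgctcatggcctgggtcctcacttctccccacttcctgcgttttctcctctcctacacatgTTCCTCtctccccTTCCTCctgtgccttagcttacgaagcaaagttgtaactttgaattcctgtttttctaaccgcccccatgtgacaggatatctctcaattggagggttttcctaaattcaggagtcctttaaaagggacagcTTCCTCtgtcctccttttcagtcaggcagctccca

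The Cd68 promoter held 1 match before the start, beginning 225 bases upstream. The Itgam promoter held 2, at 84 and 15 bases, and the Mrc1 promoter 3, at 180, 167 and 35 bases. Mrc1, with 1 read in each library, thus had more matches than Cd68 at 1892 TPM. The search for GAGGAA on both strands covered windows from 250 bases before to 50 bases after each start, and a gene counted when any of its windows held a match. Of the 23 textbook targets, 15 had a window in the table, and 12 of them (80.0%) held the motif. The longer GAGGAAGT, which contains it, was found in 1 of the 15 (6.67%), against 3.65% of all protein-coding genes. The share was 66.7% for pan-macrophage genes (16 of 24) and 30.4% for all protein-coding genes (4741 of 15587). It was 30.6% for detected genes, 30.4% for genes without a read and 29.0% for abundant genes. A match is a string of letters and no evidence of binding in these cells.

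Genes shared by most macrophages were largely detected. Of 36 pan-macrophage genes, 33 were detected (91.7%, against 46.4% of all protein-coding genes). Another 3 had a trace and 13 of the 36 were abundant, with a median of 104 TPM over the list. After Lyz2, Cd68 and Tyrobp came Laptm5, a lysosomal membrane protein of blood cells, at 953 and 856 TPM. Fcer1g, the gamma chain that signals for Fc receptors, lay at 809 and 846 TPM. Adgre1, the gene of the F4/80 antigen, lay at 289 and 269 TPM. Cd14, the co-receptor for lipopolysaccharide, lay at 151 and 151 TPM, rank 1155. Ptprc, the pan-leukocyte antigen CD45, lay at 126 and 106 TPM, rank 1556. The usual microglial stain IBA1 is encoded by Aif1, which had a trace of 9 and 6 reads (6.59 and 5.02 TPM). The lowest detected member on the longest transcript was again Msr1. Aif1 and Lyz1 (1 and 1 reads) were among the 3 markers of a macrophage-type cell that fell short of detection.

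The genes that set resting brain microglia apart ranged from the top of the transcriptome to 0. Of 36 homeostatic microglia genes, 24 were detected (66.7%, against 46.4% of all protein-coding genes). Another 5 had a trace and 7 had no read, with a median of 10.9 TPM over the list. The 7 abundant members included Cst3, Lgmn, Ctss, Csf1r, C1qb and C1qc. Cst3, the protease inhibitor cystatin C, lay at 2526 and 2594 TPM. Lgmn, the lysosomal protease legumain, lay at 1618 and 1663 TPM. Other members, chosen as common microglial markers, lay lower. Tmem119, a membrane protein, had 84 and 100 reads, or 24.0 and 32.7 TPM, near the median detected gene. P2ry12, the ADP receptor that guides microglial processes, had only 12 and 7 reads (3.28 and 2.19 TPM) and counted as a trace. Cx3cr1, the fractalkine receptor, had 22 and 10 reads (3.14 and 1.63 TPM) and was the lowest detected member, with the higher library 2.01 times the lower in CPM. P2ry12 and Cx3cr1 rested on few reads, and their order could not be told. Gpr34 had 1 and 0 reads. Sall1, Siglech, Sparc, Gas6, Crybb1 and Slco2b1 had no read in either library. In bulk RNA, a low level in every cell and a higher level in a few cells cannot be told apart.

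**Figure D3:**
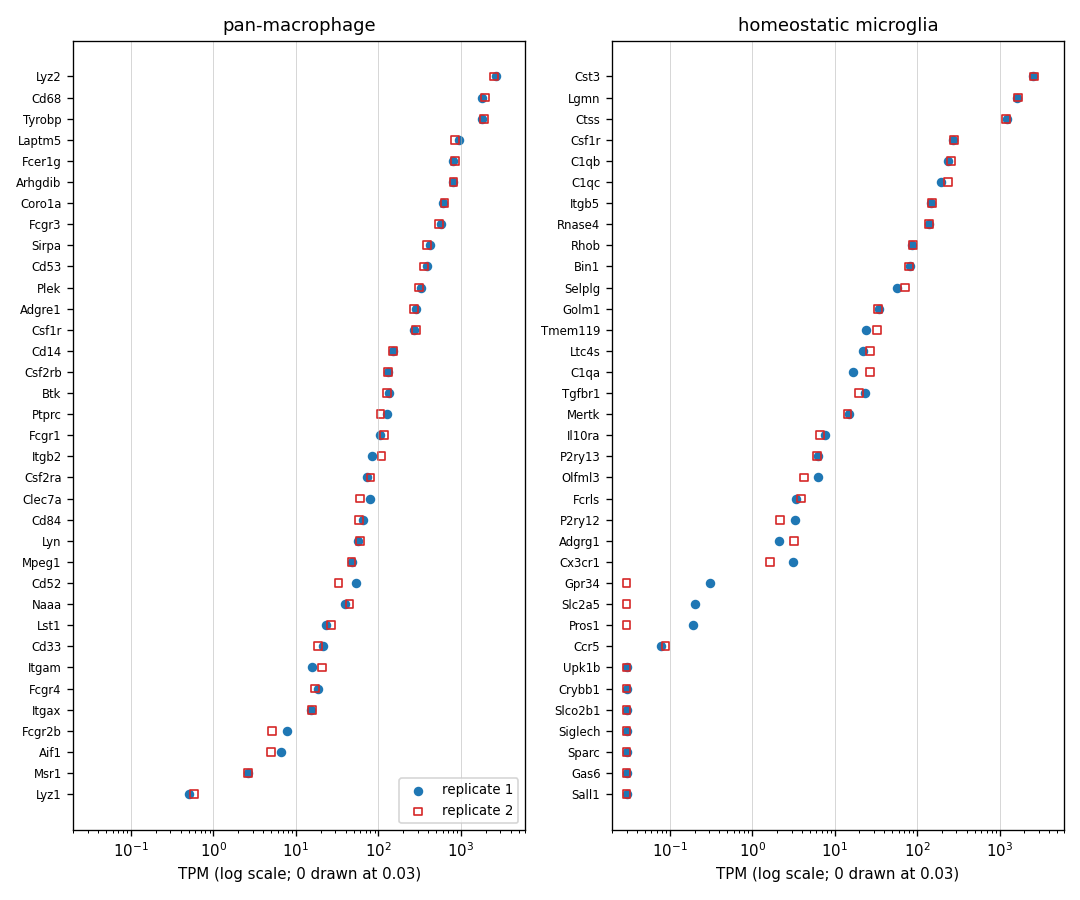
TPM of the pan-macrophage genes (left) and homeostatic microglia genes (right) reported here on a log scale, with replicate 1 as filled circles and replicate 2 as open squares, and 0 drawn at 0.03. The homeostatic list runs from Cst3 at 2526 and 2594 TPM to 7 genes at 0, while no pan-macrophage gene is at 0 in both libraries.

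Genes of border macrophages and monocytes were mostly low. Of 21, 6 were detected (28.6%, under the 46.4% of all protein-coding genes), 7 had a trace and 8 had no read, with a median of 0.166 TPM. Hp, haptoglobin, which binds free haemoglobin, was the exception at 315 and 309 TPM. Pf4, the chemokine CXCL4, lay at 94.8 and 126 TPM. Siglec1, the sialic acid receptor CD169, lay at 50.6 and 45.9 TPM. Stab1, a scavenger receptor, followed at 12.9 and 12.9 TPM. The lowest detected member, F13a1, a coagulation factor subunit, lay at 2.27 and 2.96 TPM. Cd163, Lyve1, Timd4, Ly6c2 and Ly6c1 had no read, which allows up to 0.348 CPM for each by counting error only. Ly6c1 and Ly6c2 are close paralogs, and reads placed at several positions were not counted, so their values are uncertain.

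Disease-associated microglia carry a program of lipid, lysosomal and adhesion genes that is induced around plaques and dying cells in the brain. Of 31 such genes, 30 were detected (96.8%, against 46.4% of all protein-coding genes). Of the 31, 20 were abundant, with a median of 345 TPM over the list. They made up 5.52% ± 0.010 (SD, n = 2) of TPM, most of it from Spp1, Apoe, Ctsd and Gpnmb. Below these, Fth1, the ferritin heavy chain, lay at 1949 and 2115 TPM. Cd9, a tetraspanin, lay at 1528 and 1525 TPM, and Lgals3, galectin 3, at 1159 and 1153 TPM. Lpl, lipoprotein lipase, lay at 608 and 592 TPM. The lowest detected member was Itgax, the integrin CD11c, at 15.0 and 15.7 TPM. Axl, a receptor for phosphatidylserine bridges, had 1 and 0 reads and was the only member not detected. Trem2, the lipid receptor that signals through Tyrobp, had 1983 and 1789 reads, or 266 and 274 TPM. With the length of its principal annotated transcript in place of the longest one, Trem2 lay at 1037 TPM, 3.84 times higher, so its rank of 624 depends on the transcript model.

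Lysosomal genes formed the list with the most abundant members after those of the ribosome and histones. Of 33, 32 were detected (97.0%, against 46.4% of all protein-coding genes), 25 were abundant, and the median was 438 TPM. Ctsd and Gpnmb were followed by Psap, the precursor of the saposins that activate lipid hydrolases, at 3361 and 3392 TPM. Ctsb, cathepsin B, lay at 1954 and 1926 TPM. Acid hydrolases covered a wide range, from Gusb, beta-glucuronidase, at 931 and 944 TPM to Gaa, acid glucosidase, at 83.9 and 84.9 TPM. Scarb2, a lysosomal membrane protein, was the lowest detected member at 19.9 and 22.4 TPM. Atp6v0c, the proteolipid subunit of the proton pump, had no read, while the pump subunits Atp6v1a (484 and 437 TPM) and Atp6v0d1 (458 and 442 TPM) were abundant. Atp6v0c has near-identical copies, and reads placed at several positions were not counted, so its value is uncertain.

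The CACGTG motif is the core of the sites bound by TFEB and related factors at lysosomal genes. The cathepsin A gene Ctsa, at 920 and 914 TPM, has 2 windows in RefSeq, and the one with the motif is shown, 250 bases before the start with the motif in capitals.
Ctsa, chr2:164833523-164833772, plus strand, GRCm38.p6: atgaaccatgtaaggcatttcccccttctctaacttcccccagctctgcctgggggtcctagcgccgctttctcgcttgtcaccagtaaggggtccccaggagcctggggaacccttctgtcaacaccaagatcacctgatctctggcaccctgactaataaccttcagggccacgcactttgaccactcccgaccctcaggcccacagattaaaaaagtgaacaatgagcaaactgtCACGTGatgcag

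The match begins 12 bases before the start. Of 26 lysosomal genes with a window, 9 held CACGTG (34.6%) on either strand, and 5 held the longer TCACGTGA (19.2%), which contains it. Over all protein-coding genes the shares were 9.31% and 1.48%. For CACGTG the share was 12.6% of detected genes, 14.2% of abundant genes and 5.79% of genes without a read. It was 21.1% of glycolysis genes (4 of 19). Mitf (25.7 and 23.9 TPM), Tfeb (34.5 and 26.9 TPM) and Tfec (20.8 and 20.8 TPM), factors that bind this motif, were all detected. Whether they or other factors bind these promoters in these cells was not tested, and a match is no evidence of binding.

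Lipid genes fell into carriers, synthesis and storage. Of 30, 26 were detected (86.7%) and 7 were abundant, with a median of 80.5 TPM. After Apoe and Lpl came Fabp5, a fatty acid binding protein, at 364 and 325 TPM. With principal transcript lengths Fabp5 (988 TPM) lay above Lpl (524 TPM), so their order depends on the transcript model. Soat1, which esterifies cholesterol for storage, lay at 247 and 240 TPM. The cholesterol exporters Abca1 (19.2 and 16.9 TPM) and Abcg1 (17.7 and 16.4 TPM) were detected at levels below the median detected gene. Ch25h, which makes 25-hydroxycholesterol, and Scd1, a stearoyl-CoA desaturase, had no read, while the paralog Scd2 lay at 227 and 245 TPM. The scavenger receptor Cd36 had 6 and 0 reads.

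Ferritin was among the most abundant products. Of 13 iron genes, 10 were detected (76.9%), 3 had a trace, and 5 were abundant. The ferritin chains ranked 3 (Ftl1, the light chain) and 55 (Fth1, the heavy chain). Hmox1, which releases iron from haem, lay at 393 and 415 TPM. Slc11a1, the phagosomal metal transporter NRAMP1, lay at 290 and 304 TPM. The only known iron exporter, Slc40a1, was the lowest detected member at 37.7 and 32.1 TPM. Hamp, hepcidin, had 0 and 1 reads. Ferritin genes have many processed copies, so their counts are uncertain.

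Engulfment of dying cells runs through bridging molecules, receptors and a signalling arm that ends on Rac. Of 31 phagocytosis genes, 21 were detected (67.7%), 3 had a trace and 7 had no read, with a median of 22.2 TPM. Mfge8, a bridge between phosphatidylserine and integrins, lay at 434 and 462 TPM. Sirpa, the receptor for the do-not-eat-me protein CD47, lay at 419 and 392 TPM, and Vav1, an exchange factor for Rac, at 302 and 298 TPM. Of the TAM receptors, Mertk lay at 15.0 and 14.3 TPM, Axl had 1 read in all and Tyro3 none. Their ligand Gas6 had no read and Pros1 had 1 and 0 reads. Itgb3, Timd4, Megf10 and Adgrb1, other receptors and partners for dying cells, had no read either. Cd47 was the lowest detected member at 9.52 and 6.56 TPM, and with its principal transcript's length it lay 3.49 times higher.

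Activating and inhibitory immune receptors were both represented. Of 31 Fc, TREM and ITIM receptors and their adaptors, 22 were detected (71.0%), 6 had a trace and 3 had no read, with a median of 19.9 TPM. Fcgr3, a low-affinity receptor for IgG, lay at 573 and 537 TPM. Ptpn6, the phosphatase SHP-1 that inhibitory receptors recruit, lay at 426 and 413 TPM. The inhibitory IgG receptor Fcgr2b was the lowest detected member, at 7.77 and 5.17 TPM. The Siglec genes Siglece, Siglech and Siglecg had no read, and Cd33 lay at 21.1 and 18.7 TPM.

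Complement genes were uneven. Of 24, 13 were detected (54.2%, near the 46.4% of all protein-coding genes), 6 had a trace and 5 had no read, and the median was 5.42 TPM. The initiator C1q has 3 chains that assemble together. C1qb lay at 236 and 257 TPM and C1qc at 195 and 238 TPM, and both were abundant. C1qa, with 27 and 38 reads (16.6 and 26.8 TPM), lay below both in each library, by 8.90 to 14.2 times. Itgb2, the beta chain of the complement receptors, lay at 84.6 and 109 TPM, and C3ar1, the receptor for C3a, at 62.2 and 59.5 TPM. C3, the central component, lay at 31.1 and 30.2 TPM. C5ar2 was the lowest detected member, at 5.79 and 4.70 TPM. C2, C1s1, Cd55, Cfd and Vsig4 had no read.

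Genes for sensing microbes at the surface and in endosomes were broadly detected. Of 33 Toll-like receptor genes and cofactors, 26 were detected (78.8%), 3 had a trace and 4 had no read, with a median of 21.7 TPM. Cd180, a TLR4 relative, was the highest on the longest transcript at 232 and 216 TPM. With principal transcript lengths Ly86 (251 TPM), of the same list, lay above Cd180 (196 TPM). Tlr7, the endosomal receptor for single-stranded RNA, lay at 198 and 176 TPM. Tlr2, the receptor for bacterial lipopeptides, lay at 195 and 175 TPM, just inside the abundant genes. Hsp90b1, a chaperone of these receptors, lay at 175 and 173 TPM. Tlr4, the receptor for lipopolysaccharide, lay at 36.3 and 32.9 TPM, rank 4420, near the median detected gene. Its partner Ly96, the MD-2 protein, had 16 and 15 reads (15.4 and 16.5 TPM). Tlr9, the DNA receptor, was the lowest detected member at 4.42 and 3.58 TPM. Tlr5, Tlr11, Tlr12 and Lbp had no read.

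Cytosolic sensors lay lower. Of 23 genes, 17 were detected (73.9%), 2 had a trace, 4 had no read and none was abundant, with a median of 8.64 TPM. The pore former Gsdmd lay at 138 and 145 TPM. Mavs, the mitochondrial adaptor of RNA sensing, lay at 109 and 112 TPM, and Tmem173, the STING adaptor of DNA sensing, at 104 and 93.3 TPM. Aim2, a DNA sensor, lay at 82.4 and 72.7 TPM. Casp1 (82.6 and 72.4 TPM) and Nlrp3 (23.1 and 18.4 TPM) were detected, while Pycard, the adaptor that joins them in the inflammasome, had no read. Pycard was therefore under 0.348 CPM. Ddx58, the RNA sensor RIG-I, and Ifih1, MDA5, had 0 reads and 1 read in all. Nlrx1 and Zbp1 had no read, and Nod2 was the lowest detected member at 1.49 and 1.71 TPM.

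Of 16 genes of the NF-kB system, 14 were detected (87.5%) and 2 had a trace, with none abundant and a median of 13.1 TPM. The inhibitors Nfkbia (64.6 and 63.6 TPM) and Nfkbib (59.1 and 68.2 TPM) were the highest. Among subunits, Nfkb2 lay at 36.0 and 36.7 TPM, while Rel was the lowest detected member at 2.92 and 3.83 TPM. The kinase Chuk lay at 37.1 and 32.8 TPM.

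Most cytokine genes were not detected at rest. Of 30, 11 were detected (36.7%, against 46.4% of all protein-coding genes), 5 had a trace and 14 had no read, with a median of 0.124 TPM. Mif, macrophage migration inhibitory factor, was the only abundant one at 3112 and 3373 TPM, rank 24, and its processed copies in the genome make the count uncertain. Csf1, the ligand of Csf1r, lay at 99.7 and 96.6 TPM. Tgfb1 lay at 32.9 and 41.6 TPM. Tnf, a central inflammatory cytokine, had 102 and 72 reads, or 39.9 and 32.2 TPM, so its transcript was present without stimulus. Tnfsf13b, the B cell factor BAFF, was the lowest detected member at 6.85 and 5.83 TPM. Il6, Il10, Il12a, Il12b, Il23a and Il27 had no read in either library. Il34, the other Csf1r ligand, had 2 and 0 reads.

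Chemokines direct the migration of immune cells. Of 24, 7 were detected (29.2%, against 46.4% of all protein-coding genes), 4 had a trace and 13 had no read, and the median was 0 TPM. Ccl3, MIP-1 alpha, was abundant at 345 and 337 TPM. Pf4 followed, and Cxcl14 lay at 23.5 and 27.3 TPM. Ccl6 lay at 19.1 and 20.3 TPM. Ccl9 was the lowest detected member, with 32 and 16 reads (6.82 and 3.90 TPM). Ccl8, Ccl12, Ccl17, Ccl19, Ccl22 and Cxcl1 had no read.

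Of 37 receptors for these signals, 23 were detected (62.2%), 8 had a trace and 6 had no read, with a median of 16.3 TPM. After Csf1r, the highest were Il2rg, the common gamma chain, at 218 and 230 TPM, and Tnfrsf1a, a TNF receptor, at 158 and 174 TPM. Csf2rb, the shared beta chain for GM-CSF, lay at 131 and 130 TPM. All 4 chains of the interferon receptors were detected, from Ifngr2 (106 and 106 TPM) to Ifngr1 (57.0 and 56.9 TPM). The interleukin 1 receptor Il1r1 had 1 and 1 reads. Ccr1, Ccr3, Ccr7, Ackr3, Il18r1 and Il3ra had no read, and Cx3cr1 was the lowest detected receptor.

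**Figure D4:**
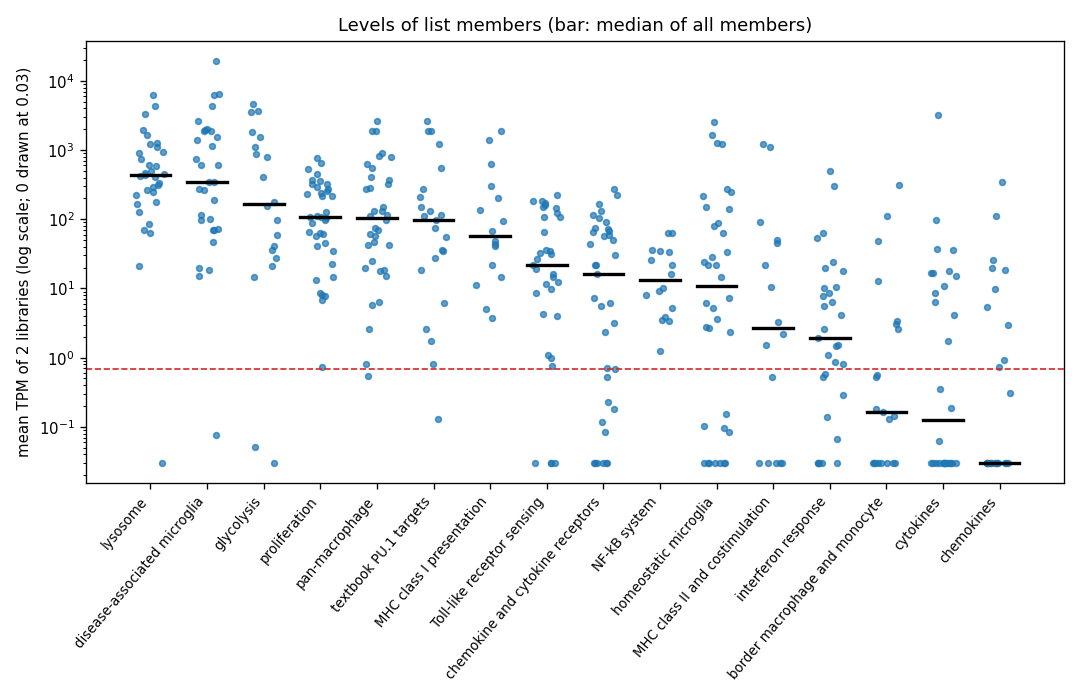
Mean TPM of every member of 16 lists (points, log scale, 0 drawn at 0.03), with the list's median over all members as a black bar and the median of all protein-coding genes (0.691 TPM) as the dashed red line. Lysosomal genes have a median of 438 TPM, and 13 chemokine genes sit at 0.

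Interferon-response genes were detected in a share close to that of all protein-coding genes: 14 of 31 (45.2%). Another 12 had a trace and 5 had no read, with a median of 1.94 TPM. Ifitm2, a membrane restriction factor, lay at 471 and 529 TPM, and Bst2, tetherin, at 294 and 303 TPM. The factors Irf3 (68.5 and 59.1 TPM) and Irf1 (45.9 and 61.7 TPM) came next. Irf7, the factor that amplifies interferon production, was the lowest detected member at 2.77 and 2.49 TPM. Isg15 had 4 and 5 reads and Rsad2 6 and 4. Mx1, Mx2, Ifi44 and Ifitm1 had no read. The Ifit, Ifitm and Mx genes have close paralogs, so their counts are uncertain.

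Class I molecules present peptides from inside the cell, and class II molecules those from engulfed material. All 16 genes of the class I pathway were detected (100%) and 5 were abundant, with a median of 58.2 TPM. The chaperone Calr, calreticulin, lay at 1880 and 1948 TPM. B2m, the light chain of class I molecules, lay at 1404 and 1379 TPM, and Pdia3, a disulfide isomerase of the loading complex, at 654 and 623 TPM. The heavy chain H2-K1 lay at 302 and 304 TPM. Tap2, a chain of the peptide transporter, was the lowest at 3.54 and 4.04 TPM. Class I heavy chains are near-identical to one another, so their counts are uncertain.

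Of 16 class II and costimulation genes, 7 were detected (43.8%, near the 46.4% of all protein-coding genes), 4 had a trace and 5 had no read, with a median of 2.72 TPM. The class II chains H2-Aa, H2-Ab1 and H2-Eb1 and their master regulator Ciita had no read, nor did Cd80. Proteases and reductases of the pathway were high, with Ctss as above and Ifi30, a lysosomal thiol reductase, at 1149 and 1065 TPM. Ifi30 is typed outside protein-coding in the annotation used for lengths, so it has no rank. Cd86, a costimulatory ligand, lay at 91.6 and 89.1 TPM, and Cd83, a marker of activated antigen-presenting cells, at a mean of 49.7 TPM. Cd74, the invariant chain that escorts class II chains, lay at 50.4 and 40.5 TPM. Cd274, the gene of PD-L1, was the lowest detected member at 9.02 and 11.7 TPM.

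The phagocyte oxidase makes superoxide at the phagosome. Its membrane subunits Cyba (1062 and 1006 TPM) and Cybb (53.5 and 56.1 TPM) and its cytosolic subunits Ncf1 (26.9 and 28.2 TPM) and Ncf4 (111 and 101 TPM) were detected. The GTPases Rac2 (228 and 262 TPM) and Rac1 (197 and 191 TPM) were abundant. The catalytic subunit Cybb lay 19.8 and 17.9 times lower per length than its partner Cyba. Nos2, inducible nitric oxide synthase, Arg2, Nox4 and Mpo had no read, and Arg1, arginase, had 0 and 1 reads. Irg1, the itaconate enzyme also named Acod1, was the lowest detected member at 3.66 and 4.19 TPM. Over the 18 genes of the list, 12 were detected (66.7%), with a median of 41.4 TPM.

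Of 29 purinergic receptors and channels, 19 were detected (65.5%), 4 had a trace and 6 had no read, with a median of 8.36 TPM. Clic1, a chloride channel, was the only abundant one at 608 and 609 TPM. Trpv2, a cation channel, lay at 165 and 173 TPM. The ATP-gated channels P2rx4 (45.1 and 45.5 TPM) and P2rx7 (39.3 and 42.4 TPM) and the ATPase Entpd1, CD39 (41.0 and 34.4 TPM), were detected. Trpm2 was the lowest detected member at 2.29 and 3.02 TPM. The adenosine receptors Adora1, Adora2a and Adora3 and the adenosine-forming Nt5e, CD73, had no read, while Adora2b lay at 15.6 and 15.9 TPM. Gabbr1 and Chrna7 had no read.

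Eicosanoid genes were detected in 11 of 15 cases (73.3%), with a median of 29.5 TPM. Ptges3, a cochaperone with prostaglandin synthase activity, lay at 447 and 416 TPM. Alox5ap, the activating protein of 5-lipoxygenase, lay at 302 and 320 TPM, whereas Alox5 itself had no read. The constitutive cyclooxygenase Ptgs1 lay at 115 and 123 TPM and the inducible Ptgs2 at 11.5 and 12.7 TPM. Pla2g4a, which releases arachidonic acid, lay at 110 and 110 TPM. Tbxas1 was the lowest detected member, at 5.48 and 4.01 TPM, and Ptger2 and Hpgd had no read.

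Transcripts of integrin and other adhesion genes were mostly detected. Of 21 genes, 15 were detected (71.4%), with a median of 64.0 TPM. Itgb1, the common beta 1 chain, lay at 584 and 515 TPM. Fermt3, kindlin 3, which activates integrins in blood cells, lay at 261 and 267 TPM. Cd44, the hyaluronan receptor, lay at 183 and 173 TPM, and Itgb5, a partner of the alpha V chain, at 148 and 150 TPM. Itgax was the lowest detected member, and Itgb3, Vcam1 and Pecam1 had no read.

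Matrix proteases and matrix genes were detected in 10 of 22 cases (45.5%, close to the background), with 11 lacking a read and a median of 0.0661 TPM. Plau, urokinase, was the only abundant one at 191 and 186 TPM. The shedding proteases Adam10 (105 and 99.6 TPM) and Adam17 (61.4 and 61.1 TPM) followed, then the proteoglycan Sdc4 (57.9 and 61.7 TPM). Mmp2, Mmp3, Mmp9, Mmp12, Mmp13 and Mmp14 had no read.

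Of 18 trophic factors, 9 were detected, a share near the 46.4% of all protein-coding genes, 2 had a trace and 7 had no read, with a median of 3.69 TPM. Apart from Spp1 and Psap, Grn, the lysosomal growth factor progranulin, lay at 240 and 212 TPM and Igf1 at 75.1 and 70.1 TPM. With principal transcript lengths Igf1 (268 TPM) lay above Grn (198 TPM), so their order also depends on the transcript model. Pdgfb was the lowest detected member at 7.40 and 5.97 TPM. The neurotrophic factors Bdnf, Gdnf and Ntf3 had no read, nor did Fgf2 and Lif.

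Glycolysis turns glucose into pyruvate and lactate. Of 20 glycolysis genes, 18 were detected (90.0%, against 46.4% of all protein-coding genes), 9 were abundant and the median was 166 TPM. Gapdh lay at 1763 and 1847 TPM, below Pkm, Ldha and Aldoa, and with the length of its principal transcript it lay 2.02 times higher. The lactate exporter Slc16a3 lay at 183 and 175 TPM. The glucose transporter Slc2a1 lay at 26.3 and 29.0 TPM, while Slc2a3 had 1 and 0 reads. Hk2 was the lowest detected enzyme at 13.2 and 16.3 TPM. Eno1, enolase, had no read, and as it has near-identical copies its value is uncertain.

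Proliferation genes were nearly all detected, at 36 of 37 (97.3%, against 46.4% of all protein-coding genes), with 15 abundant and a median of 107 TPM. Pcna, the sliding clamp of DNA replication, lay at 800 and 754 TPM. Cdk4, the kinase that acts before DNA replication, lay at 644 and 658 TPM, and Ccna2, cyclin A, at 546 and 516 TPM. The mitotic kinase Aurka lay at 452 and 437 TPM. The tumour suppressor Trp53 was abundant at 257 and 264 TPM, and Cdkn2a, the INK4A and ARF locus, was detected at 61.6 and 68.7 TPM. Cdk6 was the lowest detected member at 7.23 and 6.54 TPM.

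The MYC family and the MAP kinase pathway drive growth in many cell types. Myc had 1 and 4 reads and was not detected, and Mycn and Mycl had no read. These counts cover annotated gene symbols only, and expression of the retroviral oncogenes of BV2 cells was not examined. Max, the partner of MYC, lay at 183 and 179 TPM. The kinases Map2k2 (157 and 149 TPM), Mapk3 (147 and 137 TPM) and Map2k1 (128 and 133 TPM) of the MAP kinase pathway lay close together, and Braf was the lowest detected member at 16.3 and 17.5 TPM. Over 14 genes, 11 were detected (78.6%), with a median of 67.5 TPM.

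Of 21 genes near risk loci for neurodegenerative disease, 19 were detected (90.5%) and 6 were abundant, with a median of 27.1 TPM. Apoe, Trem2 and Spi1 were among the highest. Sorl1, a sorting receptor, was the lowest detected member at 6.82 and 7.65 TPM.

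Of 11 housekeeping genes, 10 were detected (90.9%). Actb, Rplp0, Eef1a1 and Gapdh were the highest, and Tbp, the TATA-binding protein, the lowest detected at 8.56 and 6.93 TPM.

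The lists called microglial here are all but the housekeeping and other cell type lists, and include glycolysis, proliferation and class I genes. Their pooled share is therefore no measure of microglial identity. Counted together without repeats, 455 of their 666 genes were detected (68.3%, against 46.4% of all protein-coding genes). Another 86 had a trace and 125 had no read, and 114 were abundant (17.1%, against 4.64%). The 666 genes held 15.4% ± 0.072 (SD, n = 2) of TPM. Of the markers of other cell types, 5 of 72 were detected (6.94%), 8 had a trace and 59 had no read. All 7 neuronal markers, all 7 fibroblast markers, all 5 epithelial, all 4 mast cell and all 4 erythroid markers had no read, among them Rbfox3, Col1a1, Epcam, Kit and Hba-a1. Gfap and Aqp4 of astrocytes, Mbp and Olig2 of oligodendrocytes and Cd3e and Ms4a1 of lymphocytes had no read either. The globin genes Hba-a1 and Hbb-bs have near-identical copies. Reads placed at several positions were not counted, so the values of these globin genes are uncertain.

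The 5 exceptions were osteoclast and endothelial markers. Ctsk, cathepsin K, the collagen-degrading protease of osteoclasts, was abundant at 1964 and 1847 TPM, rank 64, beside Cd68. The osteoclast genes Acp5 (6.20 and 5.57 TPM) and Ocstamp (3.33 and 3.20 TPM) were detected at low level, Dcstamp had 1 and 0 reads and Calcr none. Kdr, a VEGF receptor, had 78 and 64 reads (8.44 and 7.91 TPM) and Vwf, von Willebrand factor, 41 and 41 reads (2.97 and 3.40 TPM). The defining endothelial genes Cdh5, Tie1, Tek and Cldn5 were at 0.

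**Figure D5:**
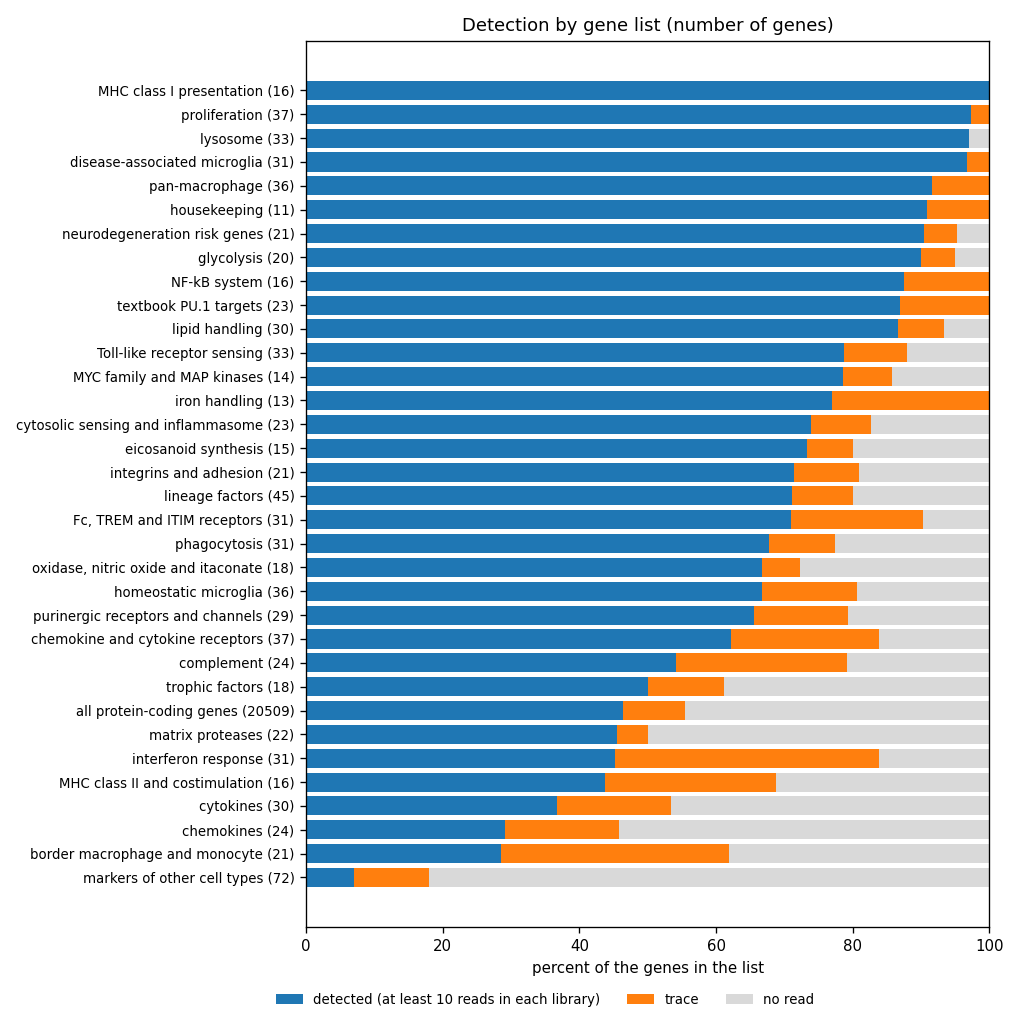
Percent of each list's genes that were detected (blue), had a trace (orange) or had no read (grey), with the number of genes in parentheses. The bar of all protein-coding genes (46.4% detected) lies above those of matrix proteases, interferon response, MHC class II, cytokines, chemokines, border macrophages and other cell types.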

How the data were processed

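RNA sequencing libraries of untreated BV2 cells labelled PU.1 knockout were used, 2 in number. The authors deposited raw, unpooled counts of reads for 24411 gene symbols, per the file headers in STAR's format, with unstranded, forward-strand and reverse-strand columns below 4 summary lines. Per the submitters' processing notes the tools were STAR 2.5.1, Trimmomatic 0.33, CASAVA 1.8.2 and DESeq2, with hg19, a human build, although the organism and symbols are mouse. Which annotation was used for counting is not given in the sources here, so no gene coordinates from the counting are printed, and those of the promoters are RefSeq's on GRCm38.p6. The labels' extraction text names human mesenchymal stem cells. STAR counts only reads with a unique position, and genes that resemble others closely are therefore uncertain.

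Levels come from the reverse-strand column, since the forward-strand column held 1.16% and 1.09% of gene reads. The summary lines stayed out of totals, and 53.0% and 51.8% of uniquely placed reads fell in no feature. CPM is relative to the gene total of 4502105 and 4115011 reads, where 1 read is 0.222 and 0.243 CPM. For TPM, the length is that of the longest GENCODE vM21 transcript of the symbol (23376 symbols, with 651 more under an older symbol and 384 unmatched, where Rn45s holds 99.3% of reads). Genes typed outside protein-coding (Clec7a, Ifi30) have a TPM on the same scale and no rank. There was 1 group, so no test was made and errors are the SD of 2 libraries. Limits for 0 reads take 3 counts and cover counting error only.

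The 44 lists hold 747 symbols, of which Acod1, C1s and Lilrb4 matched as Irg1, C1s1 and Lilrb4a and Ly6g did not match. The members and lists were chosen with earlier results of these data known, and lists share genes. Named are Spi1, the 20 highest protein-coding genes, 18 fixed microglial genes and, in each list, the 4 highest members, up to 6 without a read and the lowest detected one. Some genes that this rule names are not reported here. Others were named after their values were seen. Scripts were tested on simulated data and run with Python 3.11.15, pandas 2.3.3 and numpy 2.4.6, and R 4.3.3 with edgeR 4.0.16 for TMM factors. Alternatives were other detection rules, unstranded counts, other lengths and sums, TMM factors, a total without 5 abundant entries and leaving out each library. The length of the longest APPRIS principal transcript was added after the data were seen.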

Additional observations from a re-analysis of the deposited data

Results flagged for a closer look

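Reads on the strand opposite to the annotated gene were not used for any level above, and 3 list genes had more reads there than on their own strand, with at least 10 in each library. Pilra, an inhibitory receptor, had 94 and 91 opposite-strand reads, 185 in all, against 3 and 8 on its own strand. Nox1, a catalytic oxidase subunit, had 58 and 40, 98 in all, against none on its own strand. Cp, ceruloplasmin, had 29 and 28, 57 in all, against 1 and 1. Among all symbols, 635 had at least 10 opposite-strand reads in each library, and 307 of these had more there than on their own strand. Whether these reads come from neighbouring or antisense transcripts was not tested.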

How the results depend on the processing

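No paired analysis was possible because 1 group was described and no result comes from a test. With each library left out in turn, detected genes numbered 9873 to 9971 (9775 with both), genes with a read 11773 to 11861 (12279) and genes without one 12550 to 12638 (12132). Detected genes of the microglial lists then numbered 460 and 460 (455), those without a read 135 to 139 (125), and detected markers of other cell types 5 to 6 (5). With at least 1 read in each library, 8 markers of other cell types were detected instead of 5, beyond 1.5 times. The other counts stayed within 1.5 times under that rule, a CPM of at least 1 and unstranded counts, with 11355, 10272 and 9848 detected genes.

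Levels per length depend on the transcript chosen. Of 9515 detected protein-coding genes, 5689 moved by over 1.5 times with the median transcript length, 874 with the union of exons and 769 with the longest principal transcript. The main ranks gave a Spearman correlation across genes of 0.881, 0.978 and 0.979 with those, and 12, 14 and 14 of the top 20 genes were shared. With principal transcripts, 33 of 468 detected list genes moved that far, all upward. TMM factors were 1.03 and 0.975. Without Rn45s, Lars2, Mir6236, Rmrp and Rpph1 in the total, CPM rose 1.27 times.

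Depth limits the low genes most. Among 669 detected genes with fewer than 50 reads in all, the libraries differed by a median of 1.24 times, against 1.06 times for 595 genes with at least 2000.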

Other observations

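Genes outside the lists also shaped these libraries. Of 83 cytosolic ribosomal protein genes taken by symbol, 76 were detected and 74 were abundant, with a median of 1370.3 TPM. Of 67 replication-dependent histone genes, 53 were detected and 45 abundant, with 4.83% ± 0.25 (SD, n = 2) of TPM. Histone messages end without a poly(A) tail, and these libraries were made by depletion of ribosomal RNA. Both families have near-identical copies, so single members are uncertain.

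Noncoding transcripts are given in CPM, with no length scaling. Rn45s, the symbol of the ribosomal precursor, held the most reads of any symbol, 655430 and 781334. These were 145583 and 189874 CPM, so the higher library was 1.30 times the lower. Whether these reads come from the precursor or from mature ribosomal RNA left after depletion was not tested. The RNA components of RNase MRP and RNase P followed among noncoding genes, with Rmrp at 8186 and 8368 CPM and Rpph1 at 6856 and 7101 CPM. Malat1, a nuclear RNA of speckles, lay at 691 and 629 CPM. Neat1, the scaffold of paraspeckles, lay at 78.2 and 72.9 CPM, and Gas5, a host of small nucleolar RNAs, at 113 and 101 CPM. Of 937 long intergenic RNA genes 52 were detected, and of 119 small nucleolar RNA genes 39, against 46.4% of protein-coding genes.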
